A study of Rattus norvegicus with 24 samples.

Results

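Integrins and laminins are the receptors and the matrix chains by which lung cells hold on to their basement membranes. Their genes were taken by symbol alone, as each array feature annotated with an integrin alpha (Itga), integrin beta (Itgb) or laminin chain (Lama, Lamb, Lamc) symbol. This gave 32 of 19239 features, made up of 16 integrin alpha subunits, 7 integrin beta subunits and 9 laminin chains. Their values were described in the right lungs of 24 adult male Wistar rats, each on 1 Affymetrix array, in 4 groups of 6.

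The groups were BD HVT/LPEEP, BD LVT/OLPEEP, NBD HVT/LPEEP and NBD LVT/OLPEEP. BD stands for massive brain damage, made by inflating an epidural balloon catheter through a burr hole, and NBD for no brain damage, where the skull was not opened. HVT/LPEEP was ventilation at a tidal volume of 12 mL/kg with low positive end-expiratory pressure, and LVT/OLPEEP at 6 mL/kg with an open lung pressure found in each rat after a recruitment maneuver. Respiratory rate was also lower under HVT/LPEEP, to keep arterial carbon dioxide constant. Tidal volume, end-expiratory pressure, recruitment and respiratory rate changed together, so their parts cannot be told apart. All rats were anesthetized with ketamine and xylazine, tracheotomized and ventilated, with 6 h as the set duration, and no unventilated lung was among the arrays. In BD HVT/LPEEP, 2 of the 6 rats were non-survivors, and the labels do not say which. The time of their deaths is not given, so they may have been ventilated for less than 6 h. Non-survivors were otherwise left out by the study. Rats are named here by the replicate number of their label.

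An integrin is a pair of an alpha and a beta subunit that spans the cell membrane, binding matrix proteins or other cells outside and the actin skeleton inside through adaptor proteins. A laminin is a trimer of an alpha, a beta and a gamma chain and is, with type IV collagen, the main polymer of basement membranes, including the thin sheet shared by alveolar epithelium and capillary endothelium. In the lung, the integrins made of Itgav with Itgb6 or Itgb8 are best known for releasing active transforming growth factor beta from its latent form, and those made with Itgb2 for the arrest and migration of leukocytes.

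The values are log2 intensities as deposited, with the same distribution on every array (median 9.18, lowest 5.73, highest 14.53). Lung-defining genes were among the brightest features, with Sftpc at a mean of 14.32, Sftpa1 at 14.19 and Ager at 13.48. Rat 12 of NBD HVT/LPEEP (mean correlation with its group 0.951) and rat 16 of BD LVT/OLPEEP (0.955) stood apart from their groups. Relative to the mean of the 24 arrays, skeletal muscle markers were 3.40 higher in rat 16 and airway and basal markers 1.32 higher. Rat 12 lay 0.71 above for platelet markers and 0.47 above for neutrophil markers, and 0.31 below for alveolar type I markers. Of the 32 members, 30 were above the dimmest 40% of features by mean value, and the exceptions were Lama1 and Itga10. Lung was measured as whole tissue, in which fewer cells of a type and less RNA per cell cannot be told apart.

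Over all 32 members, few differences passed the test. In BD, HVT/LPEEP compared to LVT/OLPEEP gave 1 higher and 0 lower members, while 5.67% of all features passed (2.85% higher and 2.82% lower). BD compared to NBD under HVT/LPEEP gave 1 higher and 3 lower members (12.5%), while 14.4% of all features passed (5.9% higher and 8.5% lower), so that the members' share was near the background. In NBD, HVT/LPEEP compared to LVT/OLPEEP gave 0 members by limma, with 0% of all features passing and with 5 members, beside 16.3% of all features, under 0.05 before adjustment. BD compared to NBD under LVT/OLPEEP also gave 0 members, with 0.738% of all features passing and with 3 members, beside 11.6% of all features, under 0.05 before adjustment. When the ventilation effect in BD was set against that in NBD, 0 members passed, with 0.0104% of all features passing and with 4 members, beside 13.7% of all features, under 0.05 before adjustment. Median differences over the members were 0.02, 0.04, -0.00, -0.00 and -0.04 in the order of these 5 comparisons, beside -0.01, 0.02, -0.01, 0.00 and -0.02 over all features, on the log2 scale. The comparisons that hold BD HVT/LPEEP share its 6 arrays. All p-values below, apart from those of the correlations, come from limma, two-sided, with Benjamini-Hochberg adjustment across the whole table, and all differences are on the log2 scale.

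The members that passed were Itgb8, higher with BD under HVT/LPEEP, and Itga9, Itgb5 and Lama5, lower there. Itgb8 is a beta subunit that pairs with Itgav, Itgb5 another partner of Itgav and a vitronectin receptor, Itga9 a partner of Itgb1 that binds tenascin and Vcam1, and Lama5 the alpha chain of the most widespread laminins of mature basement membranes. Their upstream sequences are shown as the regulatory context of the 4 genes that passed, from the RefSeq promoter table of build GRCr8, as the 250 bases before the annotated start, 5′ to 3′ on the strand of the gene. Itgb8 lies at chr6:146351246-146351495 (-), Itga9 at chr8:127185039-127185288 (+), Itgb5 at chr11:80449374-80449623 (-) and Lama5 at chr3:187695975-187696224 (-). Capitals mark matches, on either strand, to the GC box GGGCGG and to TGACG, the core of the cAMP response element.
Itgb8: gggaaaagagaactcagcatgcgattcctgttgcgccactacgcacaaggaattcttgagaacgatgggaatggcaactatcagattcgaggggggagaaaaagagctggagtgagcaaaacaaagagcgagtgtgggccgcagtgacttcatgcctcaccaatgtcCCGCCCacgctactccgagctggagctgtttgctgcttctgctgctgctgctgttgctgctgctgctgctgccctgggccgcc
Itga9: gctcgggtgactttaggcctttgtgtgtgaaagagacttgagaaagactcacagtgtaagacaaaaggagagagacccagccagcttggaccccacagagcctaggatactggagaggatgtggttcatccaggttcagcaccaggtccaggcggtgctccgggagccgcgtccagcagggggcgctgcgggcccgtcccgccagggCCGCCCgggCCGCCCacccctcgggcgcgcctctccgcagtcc
Itgb5: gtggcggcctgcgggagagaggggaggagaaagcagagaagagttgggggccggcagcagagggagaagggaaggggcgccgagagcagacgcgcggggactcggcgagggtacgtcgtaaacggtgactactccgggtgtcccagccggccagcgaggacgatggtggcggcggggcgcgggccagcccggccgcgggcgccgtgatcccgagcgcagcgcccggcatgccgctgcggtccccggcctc
Lama5: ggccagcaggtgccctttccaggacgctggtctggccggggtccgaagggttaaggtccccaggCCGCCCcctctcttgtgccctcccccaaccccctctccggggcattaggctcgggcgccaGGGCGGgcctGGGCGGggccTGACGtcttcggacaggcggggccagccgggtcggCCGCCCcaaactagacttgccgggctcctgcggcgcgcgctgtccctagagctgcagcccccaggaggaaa
The GC box matched 1 time in Itgb8, 2 times in Itga9, 0 times in Itgb5 and 4 times in Lama5, and the TGACG core 1 time in Lama5. Of 32 members, 26 were matched in the table, and 14 of the 26 held a GC box, compared to 30.5% of all 33469 promoters. G and C made up 56.4% of the bases in Itgb8, 65.2% in Itga9, 74.4% in Itgb5 and 72.8% in Lama5. The median over all promoters was 51.2%. The part of base composition in the share with a GC box, a motif of only G and C, was not tested. The TGACG core was in 4 of the 26 (18.2% of all promoters), the AP-1 motif TGANTCA in 2 (6.34%) and the TATA box TATAAA in 2 (12.9%). No pair of these motifs overlapped in the 4 sequences. The motifs were chosen after the Itgb8 sequence had been seen, and a match is a description of letters.

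**Figure D1:**
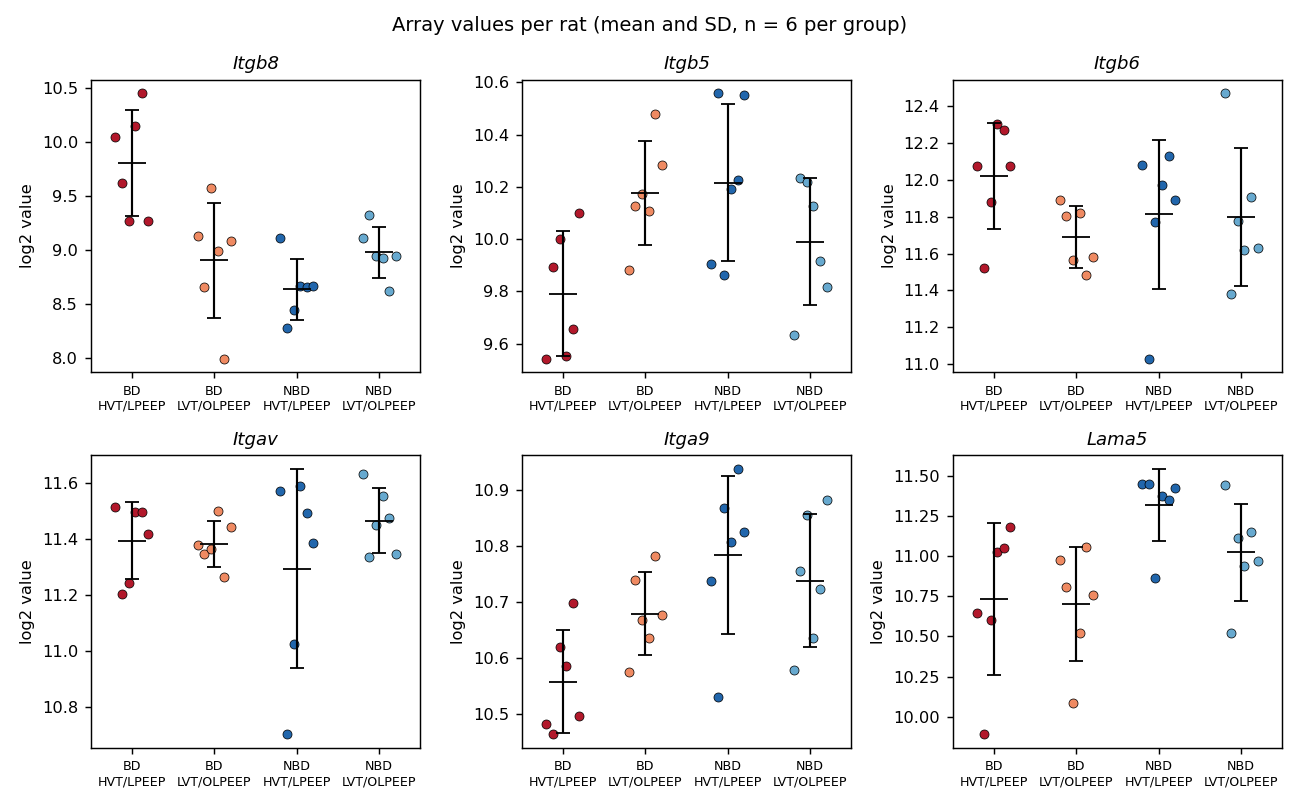
Log2 array values of Itgb8, Itgb5, Itgb6, Itgav, Itga9 and Lama5 (vertical axes, each on its own scale) in the 4 groups of 6 rats, with 1 point per rat and the mean and SD as lines. All BD HVT/LPEEP points of Itgb8 lie above all NBD HVT/LPEEP points, whereas in the other panels these groups overlap, and rat 12 of NBD HVT/LPEEP is the lowest point of Itgav (10.70) and of Itgb6 (11.03).

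Among the epithelial members, Itgb8 was the one that passed. In BD HVT/LPEEP it read 9.27, 10.05, 10.45, 10.15, 9.26 and 9.62 in rats 37, 11, 28, 26, 24 and 22, whereas in NBD HVT/LPEEP it read 8.27, 8.66, 8.66, 8.66, 8.44 and 9.11 in rats 12, 34, 33, 19, 13 and 10. These groups did not overlap, and Itgb8 was the single member for which that held in any of the 4 comparisons of groups. In this one 5.49% of all features did not overlap (1.85% with the BD rats higher), and in the other 3 the shares were 3.18% for ventilation in BD, 0.852% for ventilation in NBD and 1.9% for BD under LVT/OLPEEP. The means were 9.80 ± 0.49 in BD HVT/LPEEP and 8.63 ± 0.28 in NBD HVT/LPEEP (SD, n = 6 each), a difference of 1.17 (SE 0.22, adjusted p = 0.00127) or 2.25-fold. Leaving out any 1 rat kept this difference between 1.04 and 1.27, and any pair of BD HVT/LPEEP rats left it past the threshold in 15 of 15 cases, whereas with Holm correction in place of Benjamini-Hochberg its adjusted p was 0.558 by limma.

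Against these BD HVT/LPEEP values, Itgb8 in BD LVT/OLPEEP read 9.08, 7.99, 8.99, 9.57, 8.65 and 9.13 in rats 20, 18, 16, 14, 9 and 7, with a mean of 8.90 ± 0.54. The groups overlapped, with 4 of 6 BD HVT/LPEEP rats above every BD LVT/OLPEEP rat and rats 37 and 24 inside their range. Within BD, HVT/LPEEP was higher than LVT/OLPEEP by 0.90 (SE 0.22, adjusted p = 0.0207) or 1.86-fold. This call was lost without rat 28 of BD HVT/LPEEP (0.77, adjusted p = 0.0538), without rat 18 of BD LVT/OLPEEP (0.72, adjusted p = 0.0523) and in a fit of only the arrays compared (adjusted p = 0.0764), and it held in 8 of 15 cases when pairs of BD HVT/LPEEP rats were left out.

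Without brain damage no change of Itgb8 with ventilation passed. The NBD HVT/LPEEP mean of 8.63 ± 0.28 stood against 8.98 ± 0.23 in NBD LVT/OLPEEP, where rats 30, 27, 29, 23, 6 and 5 read 8.94, 8.92, 8.62, 8.95, 9.32 and 9.11. The ranges overlapped, and the difference was -0.34 (SE 0.22, adjusted p = 0.439). Under LVT/OLPEEP, BD differed from NBD by -0.07 (95% interval -0.54 to 0.39, adjusted p = 0.93). The ventilation effect of Itgb8 in BD exceeded that in NBD by 1.24 (SE 0.32), and this difference did not pass the test over all features (adjusted p = 0.117), although it did without rat 37 of BD HVT/LPEEP (1.35, adjusted p = 0.0487).

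Itgav, the alpha subunit that Itgb8, Itgb6 and Itgb5 share, did not pass in any comparison. In BD it averaged 11.39 ± 0.14 under HVT/LPEEP and 11.38 ± 0.08 under LVT/OLPEEP, and in NBD 11.29 ± 0.36 under HVT/LPEEP and 11.46 ± 0.12 under LVT/OLPEEP, and BD minus NBD under HVT/LPEEP was 0.10 (95% interval -0.13 to 0.34, adjusted p = 0.63). Its wide spread in NBD HVT/LPEEP came with rats 12 (10.70) and 13 (11.02), the lowest of the 24. Itgb6, an epithelial beta subunit, averaged in BD 12.02 ± 0.29 under HVT/LPEEP and 11.69 ± 0.17 under LVT/OLPEEP, and in NBD 11.81 ± 0.41 under HVT/LPEEP and 11.80 ± 0.37 under LVT/OLPEEP. Its difference within BD was 0.33 (SE 0.18, adjusted p = 0.299).

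Itgb5 stood on the other side of zero. It read 10.10, 9.54, 9.66, 9.55, 10.00 and 9.89 in rats 37, 11, 28, 26, 24 and 22 of BD HVT/LPEEP, against 10.56, 10.55, 10.23, 10.19, 9.86 and 9.91 in rats 12, 34, 33, 19, 13 and 10 of NBD HVT/LPEEP. The groups overlapped, with 3 of the 6 BD rats below every NBD rat. The means were 9.79 ± 0.24 in BD HVT/LPEEP and 10.22 ± 0.30 in NBD HVT/LPEEP, a difference of -0.43 (SE 0.14, adjusted p = 0.0401). This call was lost without any of rats 12, 34, 33 and 19 of NBD HVT/LPEEP and 11, 28, 26 and 22 of BD HVT/LPEEP, with adjusted p up to 0.105, and it held in 4 of 15 cases when pairs of BD HVT/LPEEP rats were left out. Under LVT/OLPEEP, Itgb5 averaged 10.18 ± 0.20 in BD (9.88 to 10.48) and 9.99 ± 0.24 in NBD (9.63 to 10.23), and the ventilation difference was -0.38 in BD (SE 0.14, adjusted p = 0.1) and 0.23 in NBD (SE 0.14, adjusted p = 0.406). The difference between these ventilation effects was -0.61 (SE 0.19, adjusted p = 0.185).

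The other epithelial members belong to laminin and collagen receptors. Itga2, a collagen receptor subunit with Itgb1, had the widest spread of the 32 members, in BD at 11.07 ± 0.54 under HVT/LPEEP and 10.19 ± 0.64 under LVT/OLPEEP, and in NBD at 10.50 ± 0.65 under HVT/LPEEP and 10.72 ± 0.84 under LVT/OLPEEP. Within BD it differed by 0.88 (SE 0.37, adjusted p = 0.167), nearly as much as Itgb8 but with a larger error, and with animal number as a covariate the difference was 1.31 (adjusted p = 0.0183). Itga3, a laminin receptor subunit of epithelium, averaged in BD 12.55 ± 0.35 under HVT/LPEEP against 12.10 ± 0.39 under LVT/OLPEEP, and the difference of 0.45 (SE 0.17, adjusted p = 0.123) passed without rat 22 of BD HVT/LPEEP or rat 7 of BD LVT/OLPEEP. Itga6 and Itgb4, which pair in hemidesmosomes, differed by -0.09 and -0.07 within BD, and by 0.12 and -0.22 between BD and NBD under HVT/LPEEP, with no call. Lama3 and Lamb3, chains of the hemidesmosomal laminin, gave -0.22 and -0.33 in the last comparison (adjusted p = 0.478 and 0.0855). Without rat 12 of NBD HVT/LPEEP, whose Lama3 value of 9.42 was the lowest of all rats, the difference of Lama3 was -0.44 (adjusted p = 0.0124). As background, 2.85% of all features rose with HVT/LPEEP in BD and 5.9% with BD under HVT/LPEEP. In all, 8 of 9 listed epithelial genes were measured, and 1 rose in each of the comparisons in which Itgb8 passed. Over these 8 the median difference was 0.16 for HVT/LPEEP in BD and 0.04 with BD under HVT/LPEEP. In the latter comparison 1 rose and 1 fell without rat 12 or 10 of NBD HVT/LPEEP or rat 24 of BD HVT/LPEEP.

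**Figure D2:**
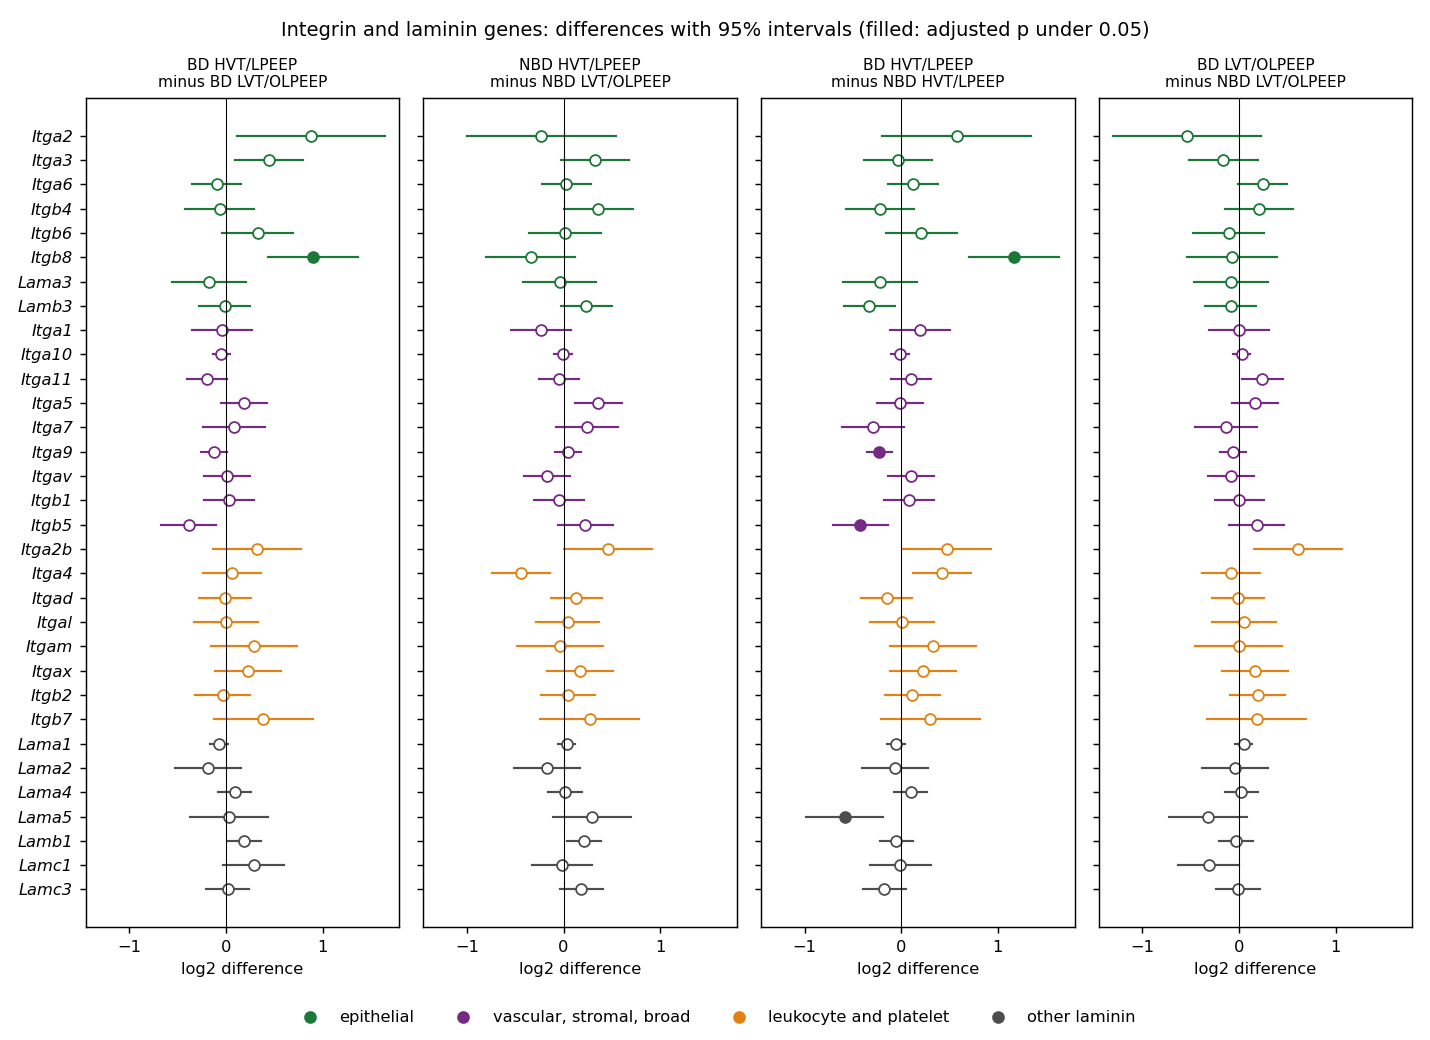
Log2 differences with 95% confidence intervals (horizontal axes) of all 32 integrin and laminin genes (vertical axis, coloured by role) in 4 comparisons of groups of 6 rats, with filled points where the adjusted p is under 0.05. Filled points are Itgb8 in both comparisons that hold BD HVT/LPEEP and Itga9, Itgb5 and Lama5 in the comparison with NBD HVT/LPEEP, and most other intervals cross 0.

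With BD under HVT/LPEEP, 5.9% of all features rose and 8.5% fell. Of the vascular, stromal and broadly expressed integrin members, 9 of 11 were measured, and 0 rose and 2 fell in this comparison (median -0.01). The count was 0 without rat 33 of NBD HVT/LPEEP, 1 without rat 12, 34 or 19 of that group or rat 11, 28, 26 or 22 of BD HVT/LPEEP, and at most 3 without any other rat. Itga9 read 10.50, 10.48, 10.70, 10.59, 10.62 and 10.46 in rats 37, 11, 28, 26, 24 and 22 of BD HVT/LPEEP, against 10.53, 10.83, 10.94, 10.81, 10.87 and 10.74 in rats 12, 34, 33, 19, 13 and 10 of NBD HVT/LPEEP. The overlap came from rat 12, the lowest NBD rat, below which 3 of the BD rats lay. The means were 10.56 ± 0.09 in BD HVT/LPEEP and 10.78 ± 0.14 in NBD HVT/LPEEP, a difference of -0.23 (SE 0.06, adjusted p = 0.0206), or 1.17-fold lower in BD. The call was lost without rat 33 of NBD HVT/LPEEP (adjusted p = 0.054) and in a fit of only the arrays compared (adjusted p = 0.0608), and it held in 7 of the 15 fits without a pair of BD HVT/LPEEP rats. Under LVT/OLPEEP it averaged 10.68 ± 0.07 in BD (10.58 to 10.78) and 10.74 ± 0.12 in NBD (10.58 to 10.88).

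Its partner Itgb1, the most widely used beta subunit, differed by 0.08 between BD and NBD under HVT/LPEEP (95% interval -0.17 to 0.33, adjusted p = 0.74) and by 0.03 between HVT/LPEEP and LVT/OLPEEP in BD (adjusted p = 0.915). In NBD LVT/OLPEEP it was the steadiest member, from 12.68 to 12.75. Itga5, which forms the classical fibronectin receptor with Itgb1, averaged in NBD 11.41 ± 0.28 under HVT/LPEEP against 11.04 ± 0.20 under LVT/OLPEEP. The difference was 0.36 (SE 0.12, adjusted p = 0.26). The collagen receptor subunits Itga1, Itga10 and Itga11 and the laminin receptor subunit Itga7 lay between -0.30 and 0.19 with BD under HVT/LPEEP, with no call. Itga7, best known from muscle, was 9.93 in rat 16 of BD LVT/OLPEEP against at most 8.91 in the rest of its group, and rat 16 was also the rat with high skeletal muscle markers. Without rat 16, Itga7 passed as lower with BD under HVT/LPEEP (limma, adjusted p = 0.0351).

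**Figure D3:**
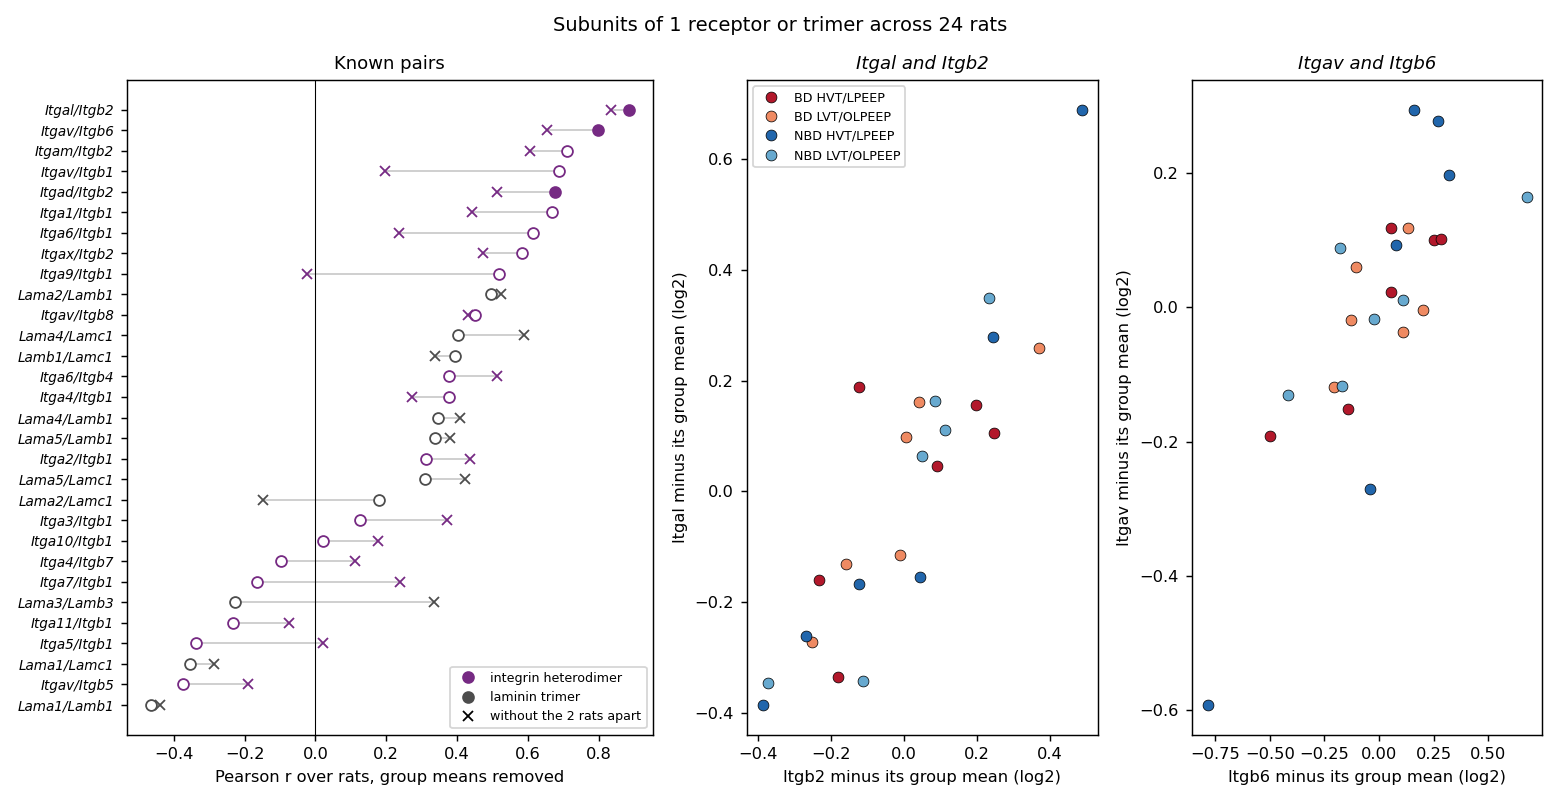
Left, Pearson's r over 24 rats after removal of the group means (horizontal axis) for 30 textbook pairs of integrin subunits or laminin chains, with filled circles where both r and rho passed over all 496 member pairs and crosses for r without rats 12 and 16. Right, log2 deviations from the group mean of Itgal against Itgb2 and of Itgav against Itgb6, with 1 point per rat, where both clouds rise from lower left to upper right (r = 0.89 and 0.80).

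Among the leukocyte and platelet members, 8 of 9 were measured and 0 passed in any comparison, beside at most 14.4% of all features. With BD under HVT/LPEEP, 7 of the 8 differences were above 0, with a median of 0.27 beside -0.01 over all features, and in BD, HVT/LPEEP minus LVT/OLPEEP gave 6 of 8 above 0 with a median of 0.14. Itga2b passed with BD under HVT/LPEEP without rat 12 and Itga4 without some others, as given with their values. Itga4, which with Itgb1 binds Vcam1, came nearest to the threshold. It read 11.19, 10.99, 10.43, 10.74, 10.72 and 10.90 in rats 37, 11, 28, 26, 24 and 22 of BD HVT/LPEEP, against 10.09, 10.27, 10.72, 10.37, 10.36 and 10.61 in rats 12, 34, 33, 19, 13 and 10 of NBD HVT/LPEEP. The groups overlapped, with 4 of the 6 BD rats above every NBD rat. The difference of 0.42 (SE 0.14) had an adjusted p of 0.0521, or 0.0363 with the dimmest 40% of features left out and 0.104 without rat 12, and it passed without rat 33 or 10 of NBD HVT/LPEEP, 28 of BD HVT/LPEEP, or 20 or 9 of BD LVT/OLPEEP. NBD HVT/LPEEP was the lowest of the groups for Itga4, at 10.41 ± 0.23 against 10.85 ± 0.22 in NBD LVT/OLPEEP (-0.44, limma, adjusted p = 0.261). In BD, Itga4 averaged 10.83 ± 0.26 under HVT/LPEEP and 10.77 ± 0.32 under LVT/OLPEEP.

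Itga2b, the platelet fibrinogen receptor subunit, averaged in BD 9.96 ± 0.39 under HVT/LPEEP and 9.63 ± 0.42 under LVT/OLPEEP, and in NBD 9.48 ± 0.51 under HVT/LPEEP and 9.02 ± 0.21 under LVT/OLPEEP. Its difference between BD and NBD under HVT/LPEEP was 0.47 (SE 0.22, adjusted p = 0.16), and 0.65 without rat 12 (adjusted p = 0.0267), the rat with the highest platelet markers of its group. Itgam and Itgax, the alpha subunits of complement receptors on myeloid cells, gave 0.33 and 0.23 in this comparison, and Itgb7, of gut-homing lymphocytes, gave 0.30. Itgal and Itgb2, the pair that binds Icam proteins on lymphocytes, gave 0.01 (95% interval -0.32 to 0.34) and 0.12 (95% interval -0.16 to 0.40), and Itgad -0.15.

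Cell type markers were counted in the same comparison, beside the 8.5% of all features that were lower and the 5.9% that were higher. With BD under HVT/LPEEP, 5 of 10 alveolar type I markers and 3 of 9 type II markers fell. Of the endothelial markers 1 of 8 fell, a share near the background, and all 8 differences were below 0 (median -0.26). The mean type I marker level relative to all arrays ranged from -0.32 to -0.15 in BD HVT/LPEEP and from -0.31 to 0.20 in NBD HVT/LPEEP, where rat 12 was the lowest. Of the leukocyte lists, 4 of 15 T, B and NK cell markers and 2 of 8 neutrophil markers rose, while 2 of 9 macrophage and monocyte markers fell. Of the platelet markers 1 of 9 rose, again a share near the background, and all 9 differences were above 0 (median 0.41). The macrophage list holds Itgam and the platelet list Itga2b. Without rat 12, 6 of 9 platelet markers rose, and without rat 34, 33 or 19 of NBD HVT/LPEEP or rat 26 or 22 of BD HVT/LPEEP 0 did, while 4 rose without rat 37 of BD HVT/LPEEP and 2 without rat 18 of BD LVT/OLPEEP. The type I count was 3 without any of rats 34, 33, 19, 37, 26 and 22, the T, B and NK count 2 without rat 19 or 22, the neutrophil count 1 without rat 34, 33 or 22 and the endothelial count 2 without rat 12. The macrophage and monocyte count was 0 without rat 34, 33, 11 or 26 and 1 without rat 12, 19, 13, 37, 28 or 22.

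Within BD, HVT/LPEEP compared to LVT/OLPEEP gave 2 of 10 type I markers lower, with Rtkn2 at -1.33 (adjusted p = 0.000444) and Emp2 at -0.33 (adjusted p = 0.00527), and 2 of 9 type II markers lower, beside 2.82% of all features. The mean type I marker level ranged from -0.32 to -0.15 in BD HVT/LPEEP and from 0.02 to 0.21 in BD LVT/OLPEEP, without overlap. Of 8 endothelial markers 0 passed by limma, with 2 under 0.05 before adjustment, and 7 of the differences were below 0 (median -0.25). Of the platelet markers 1 of 9 rose, beside 2.85% of all features, and all 9 differences were above 0 (median 0.32). In the lists of neutrophils, of macrophages and monocytes and of T, B and NK cells, 0 markers passed by limma within BD, with 1, 0 and 1 under 0.05 before adjustment. Without rat 12 of NBD HVT/LPEEP the type I count was 5. The platelet count was 2 without rat 37 of BD HVT/LPEEP and 0 without rat 11, 26, 24 or 22 of that group or rat 20, 16, 9 or 7 of BD LVT/OLPEEP. The endothelial count was 1 without rat 12 or 37, and the neutrophil count and the T, B and NK count were 1 without rat 37. The part of the marker differences of either comparison in those of the integrins, laminins and their partners was not tested.

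Of the 9 laminin chains, 0 rose and 1 fell with BD under HVT/LPEEP, beside 5.9% and 8.5% of all features. For 8 of the 9 chains the difference was below 0 (median -0.06 beside -0.01 over all features). Lama5 read 11.18, 10.65, 11.05, 11.03, 10.60 and 9.89 in rats 37, 11, 28, 26, 24 and 22 of BD HVT/LPEEP, against 11.45, 11.43, 11.35, 11.37, 10.86 and 11.45 in rats 12, 34, 33, 19, 13 and 10 of NBD HVT/LPEEP. The overlap came from rat 13, without which every NBD rat would have been above every BD rat. The means were 10.73 ± 0.47 in BD HVT/LPEEP and 11.32 ± 0.23 in NBD HVT/LPEEP, a difference of -0.59 (SE 0.19, adjusted p = 0.045) and the largest of the 3 that were lower. The call was the weakest of the 4, as it held when 10 of the 24 rats were left out in turn and was lost for the others, with adjusted p up to 0.114, and it held in 5 of the 15 fits without a pair of BD HVT/LPEEP rats.

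Under LVT/OLPEEP, Lama5 averaged 10.70 ± 0.36 in BD (10.08 to 11.06) and 11.02 ± 0.30 in NBD (10.52 to 11.44), and the difference of -0.32 (SE 0.19) did not pass (adjusted p = 0.546). Lamb1 and Lamc1, a beta and a gamma chain that trimerize with Lama5, differed by -0.05 and -0.01 with BD under HVT/LPEEP. Lamb2, another beta chain, had no feature of that name. For HVT/LPEEP minus LVT/OLPEEP, Lamb1 gave 0.19 in BD and 0.21 in NBD (SE 0.08 each), with adjusted p of 0.187 and 0.261. Lama4, the endothelial alpha chain, gave 0.10, Lama2, the alpha chain of muscle and nerve, -0.06, Lamc3 -0.18 and Lama1 -0.05, the last from a feature in the dim range.

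Subunits of 1 receptor were also compared across rats, as deviations from the group means over 24 rats, with 100000 permutations within groups and adjustment over all 496 pairs of members. Of the 496 pairs, 21 passed by Pearson's r and Spearman's rho, 7 of them negative. Among 20 textbook integrin heterodimers, 3 passed by both measures, and none of 10 textbook laminin chain pairs did. The textbook list was written after correlations among the members had been seen.

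Itgal and Itgb2 had the closest relation of the known pairs, with r = 0.89 and rho = 0.83 (permutation test, adjusted p = 0.00124 and 0.00248, from an unadjusted p of 1e-05 that is the smallest these permutations can give). Within the BD groups r was 0.64 under HVT/LPEEP and 0.89 under LVT/OLPEEP, and within the NBD groups 0.96 under HVT/LPEEP and 0.92 under LVT/OLPEEP. Over all rats it was 0.83 without the 2 rats farthest from the median of Itgal. For Itgav and Itgb6, r was 0.80 and rho 0.79 (permutation test, adjusted p = 0.00124 and 0.00496), with r = 0.74 without the 2 farthest rats and 0.65 without rats 12 and 16. For Itgad and Itgb2, r was 0.68 and rho 0.67 (permutation test, adjusted p = 0.025 and 0.0386), with r = 0.64 without the 2 farthest rats and 0.51 without rats 12 and 16.

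Itgav and Itgb8 gave r = 0.45 and rho = 0.52, which did not pass (permutation test, adjusted p = 0.0522 and 0.1), and Itgav and Itgb5 gave r = -0.37 and rho = -0.37 (permutation test, adjusted p = 0.334 and 0.351). For Itgav and Itgb1, r was 0.69 over all rats and 0.20 without rats 12 and 16, so that this value rested on those rats. The median r was 0.41 over the 20 known heterodimers and -0.05 over the 92 other combinations of an alpha and a beta subunit. Without rats 12 and 16 these medians were 0.32 and -0.07. The ranges overlapped, with r over all rats from -0.374 to 0.886 for the known heterodimers and from -0.811 to 0.887 for the other combinations. Over all rats the highest r of an alpha and a beta subunit was thus outside the known heterodimers. Without rats 12 and 16 it was inside them, at 0.835 against 0.737 for the other combinations.

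Several relations outside the known pairs also passed. Itga2 and Itgb5 ran against each other, with r = -0.81 and rho = -0.81 (permutation test, adjusted p = 0.00283 and 0.00496), and r = -0.78 without the 2 farthest rats and -0.82 without rats 12 and 16. Itgb8 ran against Itgb7, with r = -0.69 and rho = -0.73 (permutation test, adjusted p = 0.0198 and 0.0227), and r = -0.61 without the 2 farthest rats. Itga1, a collagen receptor subunit, ran against Itgal (r = -0.83, rho = -0.77, permutation test, adjusted p = 0.00165 and 0.00694), and r was -0.74 without the 2 farthest rats. Itgb6 ran with Lama3 (r = 0.81, rho = 0.78, permutation test, adjusted p = 0.00165 and 0.00709), and r was 0.78 without the 2 farthest rats and 0.70 without rats 12 and 16. How far differences in cell composition between rats carry these relations was not tested.

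Genes that bind or serve integrins and laminins were counted in 4 further lists, for which the shares of all features that passed, 14.4% with BD under HVT/LPEEP and 5.67% with HVT/LPEEP in BD, are the background. The cell surface list held ligands and, as lateral partners, the tetraspanins Cd9, Cd151, Cd81 and Cd82. Of its 14 genes, all measured, 1 rose and 4 fell with BD under HVT/LPEEP, at a median of -0.04 over the list. Vcam1, the ligand of the Itga4 and Itga9 receptors on activated endothelium, averaged 12.55 ± 0.34 in BD HVT/LPEEP (12.14 to 12.90) and 11.36 ± 0.46 in NBD HVT/LPEEP (10.94 to 12.12), without overlap, a difference of 1.19 (SE 0.25, adjusted p = 0.003). Icam2, a ligand of Itgal/Itgb2 on resting endothelium, averaged 9.50 ± 0.27 in BD HVT/LPEEP and 10.20 ± 0.12 in NBD HVT/LPEEP, a difference of -0.70 (SE 0.12, adjusted p = 0.00057). F11r, a junctional adhesion molecule, gave -0.36 (adjusted p = 0.00275), and the tetraspanins Cd151 and Cd81, which bind integrins laterally in the membrane, gave -0.33 (adjusted p = 0.00192) and -0.32 (adjusted p = 0.016), where Cd81 was named after its values were seen.

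Within BD, Vcam1 averaged 12.55 ± 0.34 under HVT/LPEEP and 11.81 ± 0.27 under LVT/OLPEEP, and the difference of 0.73 did not pass. The study's quantitative PCR, in surviving rats, also found no significant difference of Vcam1 here. In BD, HVT/LPEEP compared to LVT/OLPEEP gave 0 higher and 2 lower of the cell surface list, Icam2 at -0.47 (adjusted p = 0.0252) and F11r at -0.31 (adjusted p = 0.0172). These counts ranged from 0 to 4 when single rats were left out, with 0 without rat 20 of BD LVT/OLPEEP, 1 without rat 18 of that group or rat 11, 28 or 26 of BD HVT/LPEEP, and 4 without rat 37 of BD HVT/LPEEP, rat 7 of BD LVT/OLPEEP or rat 5 of NBD LVT/OLPEEP.

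Of the cytoplasmic adaptors, 25 of 26 were measured, and 0 rose and 4 fell with BD under HVT/LPEEP, at a median of 0.01 over the list. Lims2, part of the complex of integrin-linked kinase, averaged 10.15 ± 0.11 in BD HVT/LPEEP (10.01 to 10.31) and 11.04 ± 0.19 in NBD HVT/LPEEP (10.67 to 11.19), a difference of -0.89 (SE 0.12, adjusted p = 3.22e-05). Tns1, a tensin that links integrin tails to actin, differed by -0.72 (adjusted p = 0.00038), Sharpin, known as an inhibitor of integrin activation, by -0.50 (adjusted p = 0.000372) and Pxn, the focal adhesion protein paxillin, by -0.36 (adjusted p = 0.00647). Within BD, HVT/LPEEP was higher for Actn1, an actin cross-linker, by 0.48 (adjusted p = 0.0164) and lower for Tns1 (-0.57, adjusted p = 0.00812) and for Sharpin (-0.35, adjusted p = 0.017). These calls of adaptors were kept without any single rat.

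Of the matrix ligands, 18 of 23 were measured, and with BD under HVT/LPEEP 1 rose and 2 fell, at a median of -0.00. Fgg, a fibrinogen chain, gave 0.44 (adjusted p = 0.0158), Ctgf, a matricellular protein, -0.72 (adjusted p = 0.0323) and Vwf, the von Willebrand factor and also an endothelial marker, -0.48 (adjusted p = 0.0174). The call of Ctgf was kept when 18 of the 24 rats were left out in turn. NBD HVT/LPEEP was the highest group for Ctgf, at 12.07 ± 0.27 against 11.37 ± 0.35 in NBD LVT/OLPEEP. In BD, Ctgf averaged 11.35 ± 0.49 under HVT/LPEEP and 11.08 ± 0.48 under LVT/OLPEEP. Within BD, HVT/LPEEP was higher for 1 of the 18, Cyr61, a matricellular ligand of integrins, at 12.92 ± 0.28 under HVT/LPEEP against 11.93 ± 0.46 under LVT/OLPEEP, or 0.98 more (SE 0.25, adjusted p = 0.0243). In NBD, Cyr61 averaged 12.63 ± 0.34 under HVT/LPEEP against 11.62 ± 0.66 under LVT/OLPEEP, and this difference of 1.01 (SE 0.25) was as large but did not pass (adjusted p = 0.253, where 0% of all features passed). The ventilation effect in BD minus that in NBD was -0.03 (SE 0.36, adjusted p = 0.983). The call within BD was lost without rat 11 or 28 of BD HVT/LPEEP or rat 20 or 18 of BD LVT/OLPEEP, and the count over the list ranged from 0 to 3 (3 without rat 12 or 19 of NBD HVT/LPEEP or rat 9 of BD LVT/OLPEEP, and 2 without rat 37 of BD HVT/LPEEP or rat 7 of BD LVT/OLPEEP).

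Of the basement membrane partners of laminins, 16 of 19 were measured, and 0 rose and 3 fell with BD under HVT/LPEEP, with 13 of the 16 differences below 0 and a median of -0.14 beside -0.01 over all features. Those that fell were Cd151, given above with the tetraspanins, Bcam, a receptor of the Lama5 chain, at -0.26 (adjusted p = 0.0199), and Agrn, the proteoglycan agrin, at -0.37 (adjusted p = 0.0497). The call of Agrn was kept when 5 of the 24 rats were left out in turn. In NBD, under LVT/OLPEEP and for the difference of ventilation effects, 0 genes of the 4 partner lists passed.

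**Figure D4:**
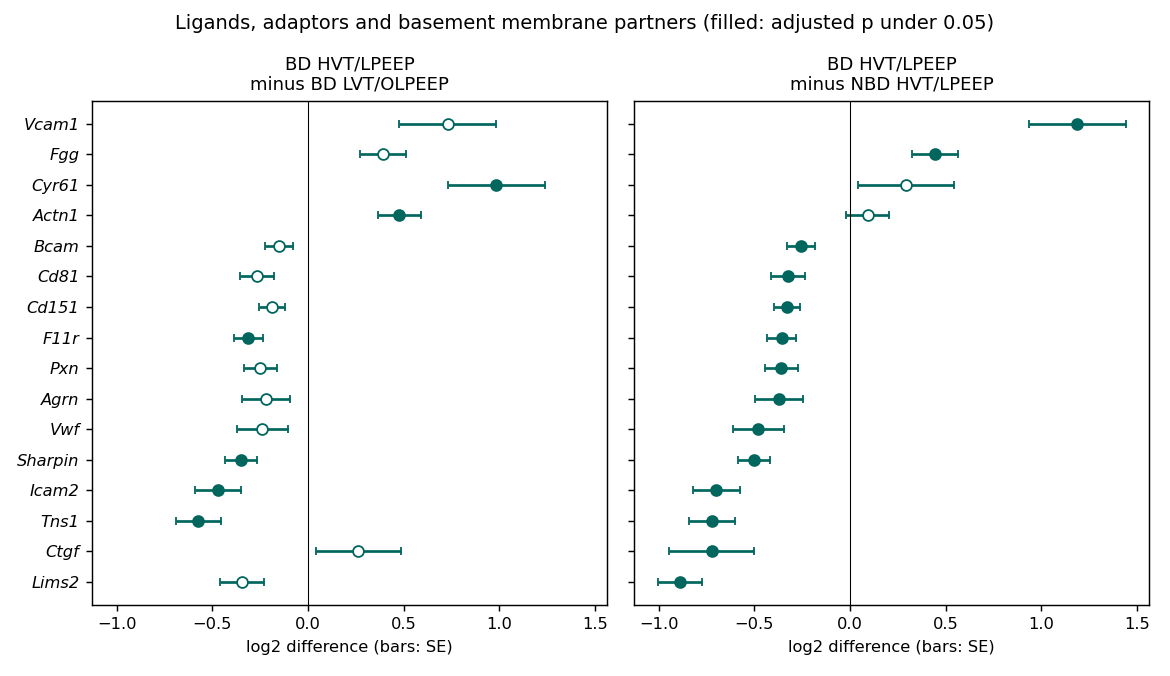
Log2 differences (horizontal axes, bars SE) of the 16 ligands, lateral partners, adaptors and basement membrane genes that passed in either comparison, in BD HVT/LPEEP minus BD LVT/OLPEEP (left) and BD HVT/LPEEP minus NBD HVT/LPEEP (right), with filled points where the adjusted p is under 0.05. On the right, Vcam1 lies farthest above 0 (1.19) and Lims2 farthest below (-0.89).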

How the data were processed

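The 24 arrays (1 per rat, 4 groups of 6 from the labels) were read from 1 table in which the authors deposited log2 values per feature. Every array held the same set of values in a different order, which is what quantile normalization between arrays gives. The background correction and probe summarization are not given in the sources read here. Features were named from the platform annotation, in which 16592 of 19239 features had 1 symbol and 2647 none, and all 32 member symbols matched a current rat gene table. Genes of the families with no feature of that name were not analysed here.

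A model of 4 group means was fitted with lmFit and eBayes (R 4.3.3, limma 3.58.1, 20 residual degrees of freedom), with two-sided tests and Benjamini-Hochberg adjustment across the 19239 features of each comparison at a threshold of 0.05. The terms of the mixed-model ANOVA that the study ran on log values are not given, so that its Holm correction was tried as an alternative. The fit was tested on simulated data. Pairs of members were tested in Python 3.11.15. Pairwise correlations used deviations from group means and 100000 permutations within groups, adjusted over all 496 pairs, since the textbook pairs were listed after correlations had been seen. Values per rat were given for every member that passed in any comparison, with the subunits that pair with it. Itga2, Itga3, Itga4, Itga5, Itga2b, Lama3 and Lamb3 were described after their values were seen. For partner lists, up to 4 members with the smallest p were named. Alternatives were Holm correction, median centring, a filter on the dimmest 40% of features, fits of only those arrays compared, trended and robust eBayes, array weights, animal number as a covariate, a 1.5-fold threshold, each rat left out and, as 2 unnamed rats of BD HVT/LPEEP were non-survivors, all 15 pairs of its rats left out. Leaving out rats 12 and 16 together was added after seeing the data. The members and lists were chosen with earlier results of these data known. With 6 rats in a group, precision is limited by their number.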

Additional observations from a re-analysis of the deposited data

Results flagged for a closer look

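Values of single rats stood far from the rest of their group for 12 of 128 combinations of a member and a group, by Dixon's test of the gap to the nearest rat at the 95% level. Chance marks about 1 in 20 groups. In rat 12 of NBD HVT/LPEEP, Itgb1 was low at 11.84 (next rat 12.69), Itgb6 at 11.03 (next 11.77) and Lama3 at 9.42 (next 10.54). In rat 16 of BD LVT/OLPEEP, Itga7 was high at 9.93 (next 8.91), Itga11 at 9.57 (next 9.01) and Itga6 at 11.25 (next 10.81). Rat 14 of BD LVT/OLPEEP was low for Lama3 at 10.10 (next 10.49) and for Lamc1 at 11.08 (next 11.45), and rat 18 of that group was high for Lamc3 at 9.28 (next 8.87). Lama5 was low in rat 13 of NBD HVT/LPEEP at 10.86 (next 11.35), Lamc1 low in rat 22 of BD HVT/LPEEP at 11.32 (next 11.80) and Itga3 high in rat 5 of NBD LVT/OLPEEP at 12.76 (next 12.23).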

How the results depend on the processing

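With Holm correction over all features, 0 members passed within BD and 0 with BD under HVT/LPEEP. In a fit of only the arrays compared, these counts were 0 and 1 (Itgb8). With animal number as a covariate, 3 members passed within BD (Itgb8 and Itga2 higher, Itgb5 lower), and with a 1.5-fold threshold 2 passed with BD under HVT/LPEEP (Itgb8 and Lama5). Leaving out single rats or pairs of BD HVT/LPEEP rats gave 0 to 2 members within BD, 1 to 5 with BD under HVT/LPEEP and 0 to 1 for the difference of ventilation effects (Itgb8 without rat 37, alone or with rat 24). For ventilation in NBD and for BD under LVT/OLPEEP, where the pairs were not left out, single rats gave 0. Within BD the count was 0 without rat 28 of BD HVT/LPEEP or rat 18 of BD LVT/OLPEEP and 2 without rat 22 of BD HVT/LPEEP or rat 7 of BD LVT/OLPEEP. With BD under HVT/LPEEP it was 2 without rat 34, 33 or 19 of NBD HVT/LPEEP or rat 11 or 22 of BD HVT/LPEEP. Without rats 12 and 16 it was 4 (Itgb8 and Itga2b higher, Itga9 and Lama3 lower). The cause was not tested. For the 4 members that passed, 126 alternative values kept direction and call, 39 kept the direction and lost the call, and 0 changed sign, not counting the pairs of BD HVT/LPEEP rats left out. Of these 15 pairs, Itgb8 kept its call in 8 within BD and in 15 with BD under HVT/LPEEP, Itga9 in 7, Itgb5 in 4 and Lama5 in 5, with 0 changes of sign. The 126 include the values from median centring, which could change nothing because all arrays have the same median. No paired analysis was possible because no replicate number occurs in more than 1 group. Signal over background per feature is not known, so dim members such as Lama1 and Itga10 have no floor.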
